A study of Mus musculus with 3 samples.

Results

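The interferon-stimulated genes described here were 39 genes chosen by name for a type I interferon response, of which 37 were in the gene list of the deposited matrices, out of 32285 gene rows in all. The 2 absent genes were Mx1 and Mx2. The members were read in single immune cells of sciatic nerves with spontaneous autoimmune neuropathy. CD45+ cells were sorted from perfused and digested nerves of neuropathic female NOD.AireGW/+ mice, which are NOD mice heterozygous for the GW allele of Aire, and 10x Genomics libraries were made from them. Libraries 1 and 2 each came from 1 mouse, and library 3 pooled 2 mice. All 3 libraries carried the same genotype and disease state, with no treatment and no non-neuropathic library, so every comparison was between cell classes or between cells of a class. The age of the mice was not given in the sources used here.

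Type I interferons bind the Ifnar1 and Ifnar2 receptor, and the kinases Jak1 and Tyk2 then activate transcription factors, among them Stat2 and Irf9, which switch on genes whose promoters carry an interferon-stimulated response element. The products block viruses at several steps. IFIT proteins bind foreign RNA, OAS enzymes switch on RNA decay, and Ddx58, Ifih1 and Dhx58 sense RNA. Isg15 is a ubiquitin-like modifier that Usp18 removes. Interferon gamma acts through Ifngr1 and Ifngr2 and induces an overlapping set of genes.

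To show the element that members share, stretches of RefSeq promoter (mouse reference, GRCm38.p6) are printed 5′ to 3′ along the gene for 4 members that carry it and for Samd9l, which does not. Capitals mark every match to GAAANNGAAA on either strand. The stretches end 51 bases before the RefSeq start site and overlap no annotated gene. They lie at chr19:34640745-34640838 (+) for Ifit1, chr19:34583359-34583478 (+) for Ifit3, chr12:26456503-26456622 (-) for Rsad2, chr4:156200869-156200988 (-) for Isg15 and chr6:3399622-3399741 (-) for Samd9l.
Ifit1: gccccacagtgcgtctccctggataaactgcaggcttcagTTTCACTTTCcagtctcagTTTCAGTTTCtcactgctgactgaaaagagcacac
Ifit3: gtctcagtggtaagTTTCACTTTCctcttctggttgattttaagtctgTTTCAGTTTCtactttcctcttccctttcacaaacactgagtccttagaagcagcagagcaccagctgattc
Rsad2: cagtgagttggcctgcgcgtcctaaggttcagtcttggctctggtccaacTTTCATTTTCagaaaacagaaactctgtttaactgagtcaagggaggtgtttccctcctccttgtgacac
Isg15: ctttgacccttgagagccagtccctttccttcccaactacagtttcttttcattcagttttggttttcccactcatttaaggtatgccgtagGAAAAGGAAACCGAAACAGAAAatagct
Samd9l: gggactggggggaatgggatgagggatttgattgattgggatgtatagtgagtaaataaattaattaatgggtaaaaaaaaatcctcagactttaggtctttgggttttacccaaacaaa

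Ifit1 and Ifit3 each held 2 matches, Rsad2 held 1, and the 3 matches of Isg15 overlapped each other. Promoters of 300 bases were given for 30 of the 37 members. Of these 30 genes, 16 (53.3%) held GAAANNGAAA, against 1079 of 27025 genes (3.99%) in the whole table. The letters TTCNNNGAA, the gamma-activated site, were in 7 of the 30 (23.3%) and in 9.55% of all genes. The 5 IFIT members neighbour each other on chromosome 19, between 34550694 and 34650009 (GRCm38), and Oas1a, Oas2 and Oas3 lie together on chromosome 5. Such copies share sequence, so reads of one may be missing from another or assigned to it.

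Cells were placed in 9 classes by UMIs (unique molecular identifiers, 1 per captured RNA molecule) of marker genes only, with no member among the markers. The classes were conventional CD4 and CD8 T cells, Foxp3 T cells, NK cells, B cells, C1q macrophages, Lyz2 monocytes, and conventional (cDC) and plasmacytoid (pDC) dendritic cells. Libraries 1, 2 and 3 kept 3848, 8256 and 1533 cells with medians of 3956, 4632.5 and 1726 UMIs, and 63.3%, 60.8% and 44.0% of those cells entered a class. Library 2 held 1889 of the 1902 macrophages, while library 1 held 9 and library 3 held 4. NK cells numbered 31, 54 and 13, and pDC 57, 98 and 4. Barcodes with macrophage markers often held T cell RNA too: 72.2%, 26.0% and 44.4% of them had over 5 Cd3 UMIs, and these were left out by the gates.

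The members together took 0.295%, 0.256% and 0.226% of all UMIs in libraries 1, 2 and 3. By class, the highest share among classes of at least 10 cells was that of monocytes in libraries 1 and 3 and of pDC in library 2, and B cells and NK cells had the lowest. In monocytes the members took 1.11%, 0.629% and 1.02% of UMIs, and in pDC 0.753%, 0.707% and 0.941%, the last from 4 cells. Shares in cDC were 0.528%, 0.334% and 0.323%. Macrophages of library 2 had 0.312%. The 2 other libraries had 0.590% from 9 cells and 1.63% from 4 cells.

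T cells lay in the middle. Foxp3 cells had 0.326%, 0.204% and 0.198%, CD4 cells 0.227%, 0.150% and 0.227%, and CD8 cells 0.220%, 0.153% and 0.202%, with overlapping ranges among the 3 classes. NK cells had 0.144%, 0.110% and 0.0877%, and B cells 0.116%, 0.0885% and 0.101%, so that both lay below all T cell values. These are shares of raw counts. The TMM scaling factors used below for single members were 0.780, 0.561 and 0.948 in B cells and 1.25, 1.08 and 1.03 in CD4 cells. The shares were not scaled by them, so the place of B cells holds for raw counts only. In all 9 classes library 2 was below library 1. The mouse, the depth and the Cell Ranger version differed between those libraries and cannot be told apart.

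A few members carried much of these sums. Bst2, tetherin, which holds budding virus at the cell surface and marks pDC, made up 62.3%, 82.5% and 74.2% of the member UMIs in pDC. Ifitm3, which blocks virus entry, made up 38.4%, 48.1% and 38.6% in monocytes. Without Bst2, Ifitm3, Isg20 and Lgals3bp, which some cell types express without interferon, the remaining 33 members took 0.186% ± 0.065 of UMIs in pDC (SD, n = 3) and 0.472% ± 0.172 in monocytes. The mean pDC share then lay next to that of cDC (0.192% ± 0.069) and Foxp3 cells (0.174% ± 0.057). It includes library 3, with 4 pDC at 0.225%. In libraries 1 and 2 pDC had 0.223% and 0.111%, below cDC (0.269% and 0.170%) and Foxp3 cells (0.237% and 0.127%).

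**Figure D1:**
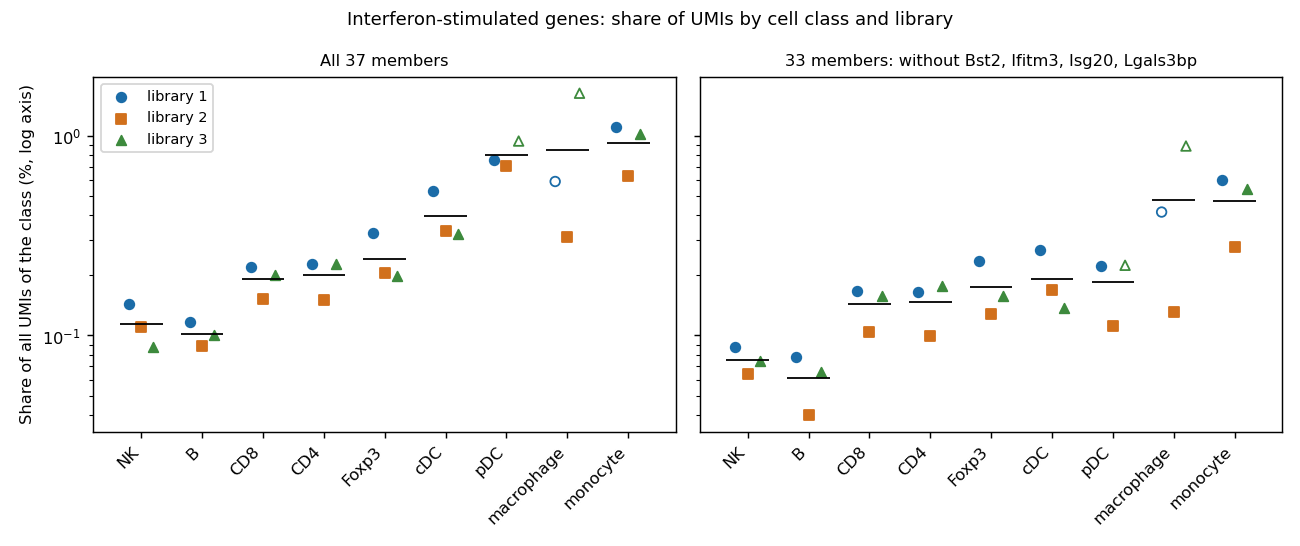
Share of UMIs (%, log axis) taken by all 37 members (left) and by 33 members (right) in each class; points are libraries, bars their mean, and open points classes of under 10 cells. The pDC mean falls from 0.800% to 0.186% when Bst2, Ifitm3, Isg20 and Lgals3bp are left out, and B and NK cells are lowest in both panels.

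Levels of single members are given as TMM-scaled CPM (UMI counts scaled to a common library size) of each class and library sum. They were tested with edgeR's quasi-likelihood test with the library as a block, and called at a Benjamini-Hochberg adjusted p under 0.05 over all 10200 genes. Each of the 37 members was tested. Monocytes were compared with CD4 cells because macrophages reached 10 cells in 1 library only. In monocytes 29 members rose and none fell, against 19.1% of all genes called higher and 18.6% lower. Of the 21 members that passed the filter on low counts (16.0 CPM) in every CD4 sum, 16 were called. DESeq2 called 29 higher and none lower. The median member was 1.79 higher on the log2 scale, and the median of all genes was -0.15. All 5 OAS members rose, as did Parp9, Parp14, Dtx3l and Rtp4.

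Ifitm3 stood at 4648, 3726 and 3718 CPM in monocytes and at 195, 183 and 172 CPM in CD4 cells (log2 difference 4.50, SE 0.50, edgeR adjusted p = 3.18e-08). Oas3, which makes the 2′-5′ oligoadenylate that activates RNA decay, was at 89.6, 24.4 and 53.9 CPM against 5.09, 2.30 and 2.57 CPM. The groups did not overlap for either gene. Oas3 was under the filter in every CD4 sum. Oasl2 and Oasl1, OAS-like proteins, were higher by 3.67 (SE 0.29) and 3.60 (SE 0.42) on the log2 scale. Isg15 was at 1207, 608 and 1853 CPM in monocytes and at 147, 129.7 and 463 CPM in CD4 cells (log2 difference 2.42, SE 0.40, edgeR adjusted p = 1.83e-05). Gbp2, an interferon-induced GTPase, was at 873, 529.8 and 291 CPM against 65.4, 56.9 and 74.5 CPM.

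The IFIT family was less uniform. Of its 5 members only Ifit2 and Ifit3 rose in monocytes. Ifit1 was at 68.5, 29.6 and 43.1 CPM in monocytes and at 40.7, 27.0 and 95.1 CPM in CD4 cells, with overlapping groups and a log2 difference of 0.16 (SE 0.34, edgeR adjusted p = 0.746). Ifit3 was at 108, 78.4 and 119 CPM against 35.2, 23.4 and 89.9 CPM, a called difference of 1.40 (SE 0.32) whose groups overlapped because CD4 cells of library 3 were high.

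In library 2, the only library with enough macrophages, 20 of the 37 members were at least 2-fold higher in macrophages than in CD4 cells and 4 were at least 2-fold lower, with no test. Over all genes the shares were 22.7% and 14.8%. Lgals3bp, a secreted galectin-binding glycoprotein, was at 734 CPM in macrophages and 67.9 CPM in CD4 cells, and Oasl2 at 57.3 and 6.86 CPM. Ifit1 was at 7.85 CPM in macrophages and 26.8 CPM in CD4 cells. Against macrophages of the same library, monocytes had 11 of 36 members at least 2-fold higher and 3 lower, with 4.13% and 16.3% of all genes. Rsad2, the antiviral enzyme viperin, was at 53.7 CPM in monocytes and 15.8 CPM in macrophages, and Lgals3bp at 168 and 734 CPM.

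The 3 T cell classes differed in few members. Between CD8 and CD4 cells 1 member was called higher and 2 lower, against 3.2% and 4.87% of all genes, and no called difference remained in a fit without the library block. Ifitm3 was at 52.5, 96.2 and 8.02 CPM in CD8 cells and at 195, 183 and 172 CPM in CD4 cells (log2 difference -1.77, SE 0.48, edgeR adjusted p = 0.0171), and the groups did not overlap. Lgals3bp was higher in CD8 cells in each library by 0.96 (SE 0.25), at 187, 135 and 85.0 CPM against 95.2, 68.5 and 46.3 CPM. The other called member, Oasl2, was at 6.91, 2.94 and 3.21 CPM in CD8 cells and at 16.1, 6.91 and 7.71 CPM in CD4 cells.

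Between Foxp3 and CD4 cells edgeR called 0 of the 37 members, with 1.42% of all genes called higher and 1.39% lower. DESeq2 also called 0, and 3 members had an unadjusted edgeR p under 0.05. Foxp3 cells were at 248, 172 and 303 CPM of Isg15, within the range of CD4 cells.

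NK cells had 4 members lower than CD8 cells and none higher, against 2.23% and 1.98% of all genes. Ifit3 was at 0 CPM in all 3 libraries of NK cells and at 43.3, 39.1 and 49.7 CPM in CD8 cells. No UMI of it was found in 407450 UMIs of 98 NK cells, where 3 UMIs would be 7.36 CPM, so it was at least 6.1-fold lower. Ifit1 had 1 UMI in NK cells. Zbp1, a sensor of Z-form nucleic acids, was at 29.0, 52.3 and 19.7 CPM in NK cells and at 115, 111 and 184 CPM in CD8 cells (log2 difference -1.70, SE 0.37, edgeR adjusted p = 0.00491). Bst2 was lower by 1.37 on the log2 scale (SE 0.37), and this call was lost without library 1, without library 3, without the block and under the stricter gate. Without library 1 only 1 member was called.

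B cells had 2 members higher and 17 lower than CD4 cells, against 14.7% and 16.4% of all genes. The median member was at -0.62 on the log2 scale and the median gene at -0.03. All 5 IFIT members and all 3 members of the Isg15 system fell. Ifit1 was at 2.86, 0.573 and 0 CPM in B cells against 40.7, 27.0 and 95.1 CPM in CD4 cells (log2 difference -4.59, SE 0.49, edgeR adjusted p = 1.36e-08). Ifit3 was at 10.3, 4.01 and 0 CPM against 35.2, 23.4 and 89.9 CPM. Ifitm3 was at 41.1, 46.4 and 37.8 CPM against 195, 183 and 172 CPM.

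Every library showed B cells below CD4 cells for these 3 genes. Bst2 went the other way, at 307, 594 and 220.5 CPM in B cells and 145, 145 and 190.2 CPM in CD4 cells (log2 difference 1.30, SE 0.27, edgeR adjusted p = 0.000365). Isg20, a 3′ to 5′ exonuclease, was called higher in B cells but was lower in library 3. All 4 listed plasma cell markers, Jchain, Mzb1, Sdc1 and Xbp1, were also called higher in the B class. The part of plasma cells in its values was not tested. Without TMM scaling, which moved the median of all genes to -0.76, 28 members were called lower and 1 higher, and with cells thinned to 1000 UMIs 10 were lower and 1 higher. Without library 1, 10 were lower and 1 higher.

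pDC could be set against cDC in libraries 1 and 2 for pDC and in 3 libraries for cDC. In pDC 2 members were higher and 13 lower, against 10.9% of all genes in each direction. Bst2 was at 4297 and 5676 CPM in pDC and at 469.8, 455 and 324 CPM in cDC (log2 difference 3.54, SE 0.30, edgeR adjusted p = 8.59e-10). Irf7, the factor that drives type I interferon transcription in pDC, was at 584 and 380.5 CPM in pDC and at 386, 239 and 209 CPM in cDC, which overlapped; its call (log2 difference 0.75, SE 0.27) was lost without any 1 of the libraries and without the block. Ifitm3 was lower in pDC, at 438 and 68.2 CPM against 2081, 1340.2 and 1425 CPM. Gbp2 was at 111 and 6.2 CPM against 299, 255 and 209 CPM. Without the block 4 members were lower and 1 higher, and without library 1 or without library 2 6 were lower and 1 higher. Those fits kept 1 pDC sum, which is assumed to vary like the sums of the other classes.

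**Figure D2:**
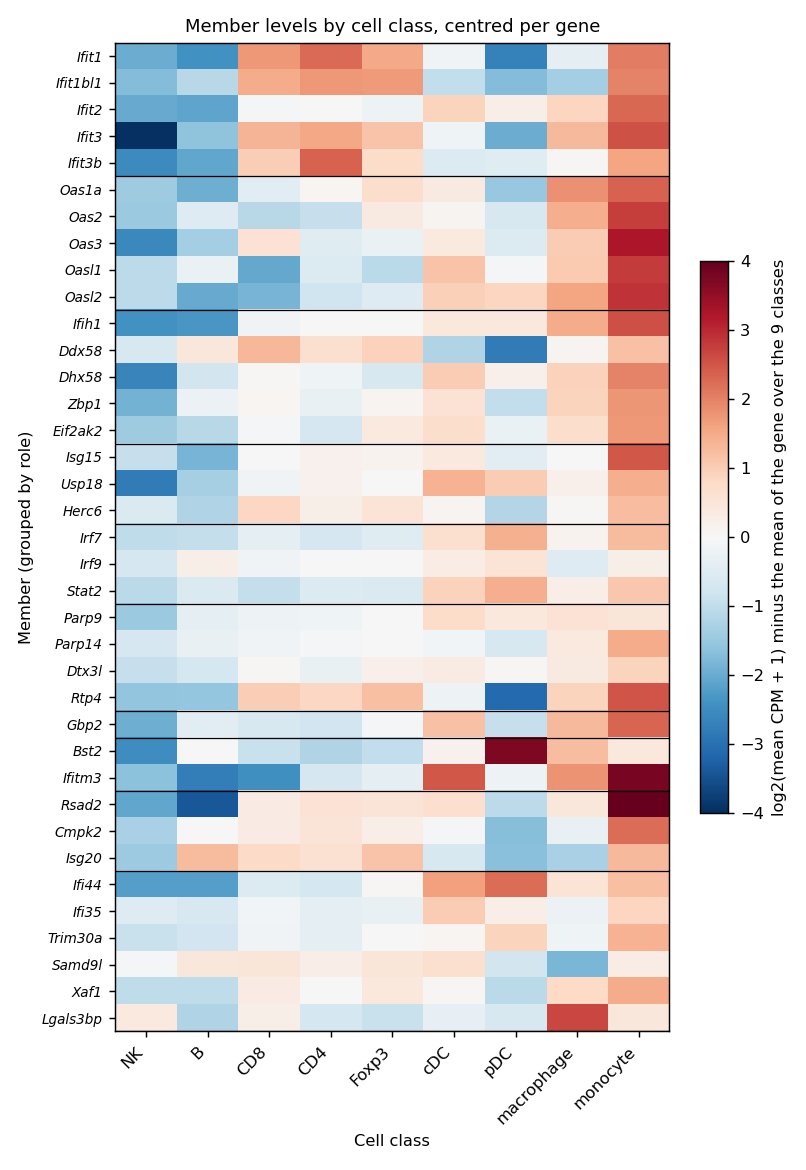
Members (rows, grouped by role) in the 9 classes (columns); colour is log2(mean CPM + 1) minus the mean of that gene over the classes, limited to 4 either way, so colours compare classes within a gene and not genes. Means are over sums of at least 10 cells, from library 2 only for macrophages, libraries 1 and 2 for pDC and all libraries for the other classes. Rsad2, Ifitm3 and the OAS rows are highest in monocytes, Bst2 in pDC and Lgals3bp in macrophages.

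The other genes of the pathway were followed in the same fits, from a list of 49. Of the 8 receptor chains and kinases tested, 5 were lower in B cells than in CD4 cells and 1 was higher. Ifngr1 was at 142, 83.1 and 151 CPM in B cells and at 1024, 646 and 1018 CPM in CD4 cells (log2 difference -2.89, SE 0.27, edgeR adjusted p = 1.2e-09). Ifnar1 and Ifnar2 were lower by 0.86 (SE 0.19) and 0.84 (SE 0.21) on the log2 scale.

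In NK cells Ifnar1 was not called against CD8 cells (log2 difference -0.53, SE 0.26). In pDC both Ifnar1, at 248 and 211 CPM, and Ifnar2, at 428 and 521 CPM, were higher than in cDC, which had 103, 86.4 and 69.5 CPM and 162, 199.9 and 116 CPM. Tlr7, the endosomal RNA receptor of pDC, was at 141 and 147 CPM in pDC and between 0 and 1.76 CPM in cDC. Tlr9, the DNA receptor, was at 28.2 and 26.9 CPM in pDC and at 10.5, 21.8 and 23.2 CPM in cDC, and was not called. Monocytes had more Irf1 than CD4 cells, at 733, 434 and 463 CPM against 176, 155 and 128 CPM (log2 difference 1.79, SE 0.24).

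Within a class the members were unevenly spread over cells. With each cell thinned to 1000 UMIs, the summed UMIs of the 33 members had a variance between 3.47 and 8.97 times their mean in CD4 cells and between 3.72 and 4.97 times in CD8 cells. The ratio was between 0.966 and 1.82 in B cells and between 1.12 and 1.5 in NK cells. The 9 receptor and kinase genes, summed in the same thinned cells, had ratios of 1.57 to 2.00 in CD4 cells and 1.35 to 1.66 in CD8 cells. Single cells weighed in these ratios. Without the 1 cell that held most member UMIs, the CD4 ratios were 3.23, 3.22 and 4.72 in libraries 1, 2 and 3 and the CD8 ratios 3.37, 3.97 and 2.31, while those of B cells lay between 0.929 and 1.52 and those of NK cells between 0.823 and 1.07. In CD8 cells the upper 10% of cells by member UMIs held 42.3%, 53.8% and 45% of them, and 30.5%, 51.0% and 31.9% of cells had none.

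Ifit3, an antiviral adaptor of the IFIT family, was found in a small share of cells. After thinning, 3.94%, 3.50% and 3.83% of CD8 cells, 2.96%, 1.53% and 2.56% of CD4 cells and 3.40%, 1.88% and 3.26% of Foxp3 cells had at least 1 Ifit3 UMI. B cells had 0.314%, 0.285% and 0%. NK cells had none, also without thinning, where 0 of 98 cells allows a share of cells with an Ifit3 UMI of up to 3.06%. The thinned B cell share was below every thinned T cell share. Unthinned median depths were 4177, 3079 and 1735 UMIs in B cells and 4081, 3404.5 and 2131 in CD8 cells. The part of RNA from outside the cell was not tested. Without thinning the CD8 shares were 10.2%, 7.22% and 7.97% and the B shares 3.85%, 1.14% and 0%. The unthinned CD4 shares were 4.67%, 3.60% and 3.89%, each above the B share of its library, but the B share of library 1 lay close to the CD4 share there and above that of library 2. The Ifit3-positive cells compared next were chosen without thinning. All limits of this kind cover counting error only. In monocytes 9.26%, 2.92% and 19.0% of thinned cells had Ifit3, a wide spread that comes from 54, 137 and 21 cells.

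To see which genes moved with Ifit3, cells of a class with at least 1 Ifit3 UMI were summed per library and compared with cells without one. Ifit3 and its near copy Ifit3b chose the cells or share reads with it and are left out of every count. In CD8 cells, the only class with sums of at least 10 positive cells in 3 libraries (95, 71 and 20 cells), 29 of the other 35 members passed the filter on low counts and all 29 were called higher, against 2.56% of all genes higher and 0.382% lower. Of these, 18 passed the filter in every negative sum as well, and all 18 were called. The other 11 passed through the positive cells, where they were high. With no filter 34 of 35 were called. With cells thinned to 1000 UMIs, 11 of 30 were called, and without the block 17 of 29.

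In CD8 cells Ifit1 was at 280.1, 318 and 287 CPM in Ifit3-positive and at 14.2, 8.22 and 10.9 CPM in Ifit3-negative cells (log2 difference 4.71, SE 0.22, edgeR adjusted p = 1.06e-15). Rsad2 was at 107, 147 and 79.6 CPM against 6.63, 2.57 and 5.47 CPM (log2 difference 4.65, SE 0.35). Usp18, the Isg15 protease that also dampens the interferon receptor, was at 89.0, 69.0 and 111 CPM against 5.45, 4.37 and 7.29 CPM. No positive sum overlapped a negative sum for any of the 3. All 3 lay under the filter of 16.7 CPM in every negative sum. They were tested because they were high in the positive cells. Oas3 was higher by 3.50 on the log2 scale (SE 0.47), and its call was lost when cells were thinned. It too was under that filter in every negative sum.

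Smaller differences were measured for other members. Samd9l, the one with no GAAANNGAAA in the printed stretch, was at 142, 81.0 and 159 CPM against 63.2, 37.5 and 67.5 CPM (log2 difference 1.16, SE 0.21). Lgals3bp was at 379, 239.9 and 111 CPM against 183, 133 and 83.9 CPM, with overlapping groups and a log2 difference of 0.92 (SE 0.15). Ifitm3 was at 0 CPM in the 20 positive cells of library 3 and at 9.12 CPM in the negative ones, and rose in the other 2 libraries only, at 193 and 441 CPM against 38.8 and 71.7 CPM. The 13 tested members whose promoters held GAAANNGAAA, as printed for Ifit1, Rsad2 and Isg15, had a median log2 difference of 2.43, between 1.40 and 4.71. The 10 without it had a median of 1.41, between 0.92 and 3.05. The same medians with and without the letters were 2.74 and 2.25 in CD4 cells, 1.52 and 1.61 in Foxp3 cells and 1.13 and 1.20 in monocytes, so that the order was not the same in every class. In each class these sets include members that did not pass the filter in every negative sum, such as Ifit1 and Rsad2 in CD8 cells. Such members were tested because they were high in the positive cells.

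CD4, Foxp3 and monocyte sums reached 10 Ifit3-positive cells in libraries 1 and 2 only, so those fits had 1 residual degree of freedom and their p-values rest mainly on the spread shared by all genes. In CD4 cells (28 and 29 positive cells) 31 of 33 members were called higher, and none lower, against 2.65% and 0.894% of all genes. Of the 22 that passed the filter in every negative sum, 21 were called. Rsad2 was at 183 and 196 CPM against 9.38 and 3.17 CPM (log2 difference 4.95, SE 0.45), and Oasl2 at 128 and 122 CPM against 9.87 and 2.38 CPM. Neither passed the filter of 9.66 CPM in every negative sum. Ifit1bl1, a neighbour and relative of Ifit1, had the largest difference (5.08, SE 0.72) and did not pass that filter in every negative sum either. DESeq2 called 22 members, and 18 were called without the block.

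In Foxp3 cells (33 and 28 positive cells) 23 of 31 members were called higher, and none lower, against 1.87% and 0.327% of all genes, and of these 17 were among the 24 that passed the filter in every negative sum. DESeq2 called 7, and 1 was called without the block. Oasl1 was at 45.8 and 40.6 CPM against 3.33 and 1.03 CPM (log2 difference 4.27, SE 0.83). Ifitm3 was called there although it rose only in library 1. In monocytes (21 and 17 positive cells) 12 of 31 were called higher and none lower, against 1.39% and 0.64% of all genes, and of these 6 were among the 15 that passed the filter in every negative sum. DESeq2 called 3, and none was called without the block. Isg15 was at 2130.1 and 2010.3 CPM against 576 and 329 CPM, and Ifit2 at 284 and 149.7 CPM against 25.6 and 16.4 CPM. Ifit2 was under the filter of 48.4 CPM in both negative sums. Gbp2, in contrast, was at 857 and 374 CPM in positive and at 857 and 550.2 CPM in negative monocytes (log2 difference -0.24, SE 0.23).

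Rsad2, Ifit1, Ifit2, Isg15, Irf7, Rtp4, Xaf1, Bst2 and Ifitm3 were called higher in all 4 of these comparisons, which come from different cells of the same libraries. Rsad2 and Ifit1 in CD8 cells, Rsad2 in CD4 cells and Ifit2 in monocytes did not pass the filter in every negative sum. They were tested there because they were high in the positive cells. Ifitm3 did not rise in every library of CD8 or Foxp3 cells. Sums of at least 10 positive B cells and macrophages existed in 1 library each, so no test was made there.

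**Figure D3:**
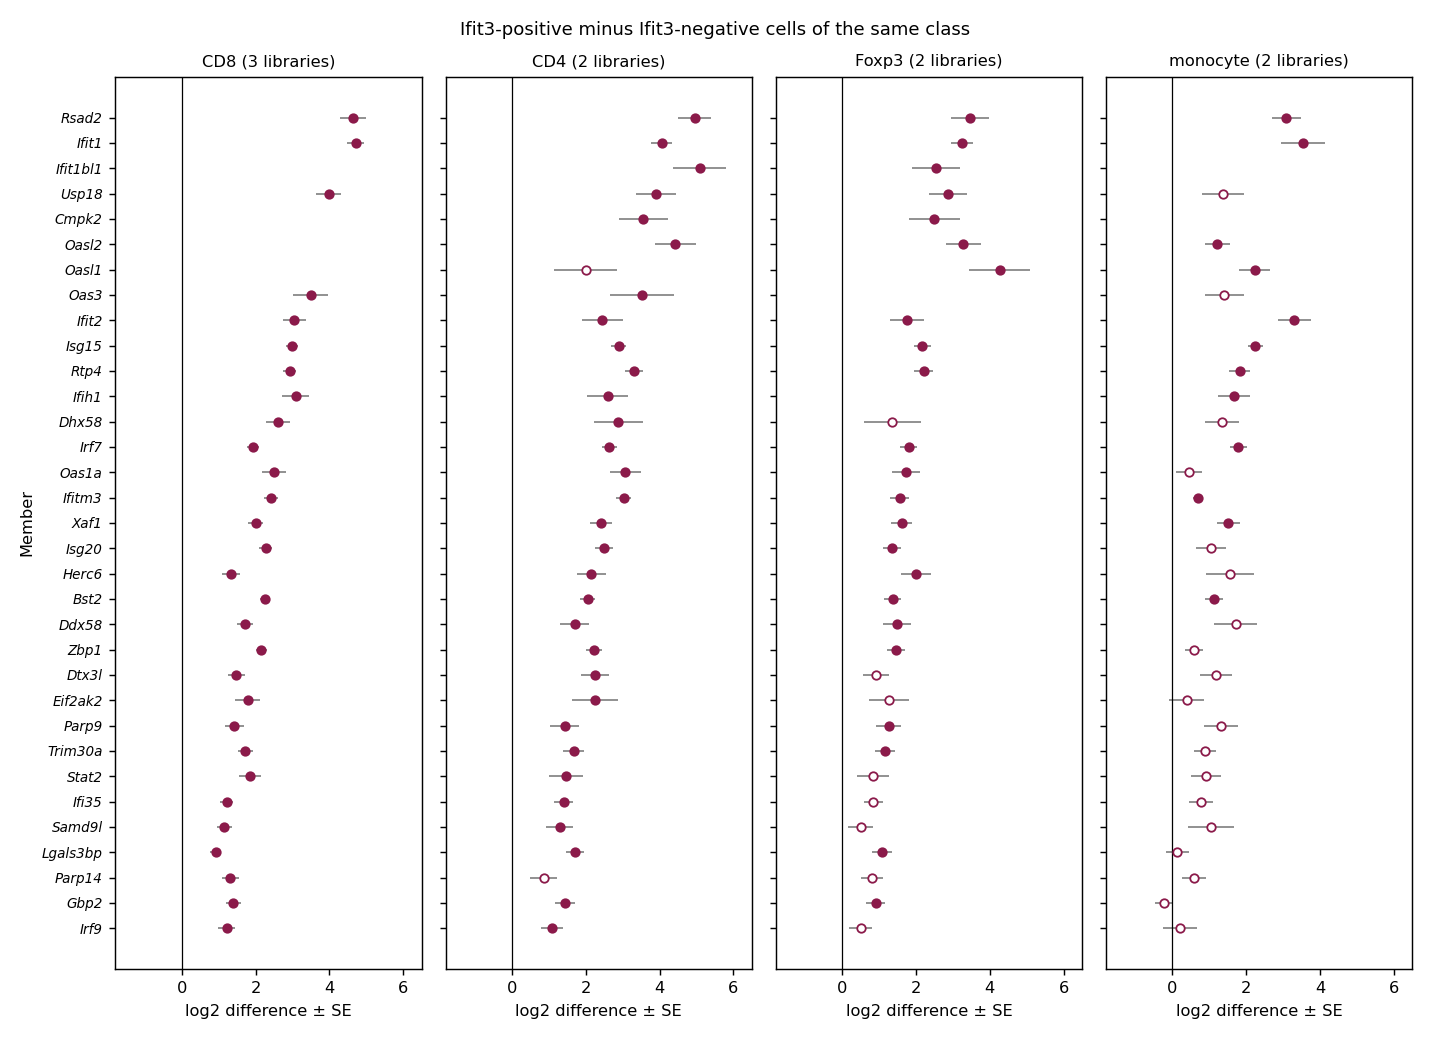
Difference in level (log2 scale, x axis, with SE) between Ifit3-positive and Ifit3-negative cells of 4 classes for each tested member (y axis, ordered by mean difference); filled points were called at an edgeR adjusted p under 0.05. In CD8 cells all 29 points are filled and range from 0.92 for Lgals3bp to 4.71 for Ifit1, while most points of monocytes are open.

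Cell by cell, at 1000 UMIs each, 73.7%, 64.8% and 78.9% of Ifit3-positive CD8 cells had 3 or more other members detected, against 21.5%, 7.99% and 15.7% of negative CD8 cells. In CD4 cells the shares were 88.9%, 75.9% and 100% (27, 29 and 7 positive cells) against 16.3%, 9.81% and 12.8%. In each library the positive cells of both classes lay far above the negative cells. Monocytes differed less, at 100%, 88.2% and 85.7% against 90.9%, 56.7% and 64.3%, since most Ifit3-negative monocytes also held other members. Positive cells were deeper before thinning, with medians of 5122, 3470 and 2494.5 UMIs against 3916, 3395 and 2121 in CD8 cells.

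**Figure D4:**
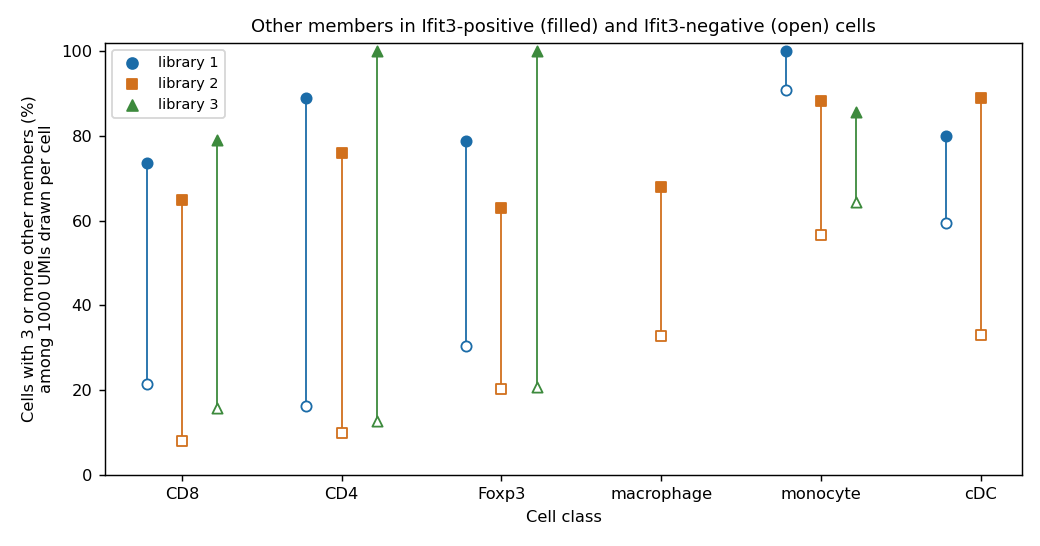
Share of cells (%) with 3 or more other members among 1000 UMIs drawn per cell, for Ifit3-positive (filled) and Ifit3-negative (open) cells of 6 classes, joined within each library; groups of under 5 positive cells are not drawn. The gap is wide in CD8 and CD4 cells and narrow in monocytes, where the open points start at 56.7%.

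Taking out every Ifit3-positive cell lowered the mean member share of UMIs from 0.201% to 0.147% in CD4 cells and from 0.192% to 0.139% in CD8 cells, and from 0.919% to 0.610% in monocytes. Ifit3 is itself a member, so a lower share was built into the choice of these cells. The order of these raw shares, monocytes above T cells and T cells above B cells, was kept.

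Outside the members, none of the receptor chains or kinases was called between Ifit3-positive and Ifit3-negative CD8 cells, CD4 cells or monocytes, and Ifngr2 alone was called higher in Foxp3 cells. Ifnar1 and Ifnar2 differed by 0.07 (SE 0.19) and -0.07 (SE 0.21) in CD8 cells. Of 9 tested genes known mainly as targets of interferon gamma, 8 rose in positive CD8 cells, among them Igtp (1.65, SE 0.19), a GTPase of cell-autonomous defence, and Gbp7 (1.17, SE 0.19). Of these 8, Iigp1 and Tgtp2 did not pass the filter in every negative CD8 sum. In CD4 cells 3 of 11 rose, and in monocytes 0 of 11. Of all genes, 2.56%, 2.65%, 1.87% and 1.39% were called higher in positive CD8, CD4 and Foxp3 cells and monocytes. In Foxp3 cells 3 of 12 rose, among them Cxcl9, a chemokine, and Ciita, the activator of MHC class II genes, which antigen-presenting cells also express. Cxcl9 was at 1504 and 176 CPM in positive and at 39.3 and 87.4 CPM in negative Foxp3 cells (log2 difference 3.34, SE 0.28, edgeR adjusted p = 7.87e-30). Its rise was far larger in library 1 than in library 2, and the SE and p-value do not describe that spread. Ciita was at 72.5 and 60.8 CPM against 7.99 and 19.5 CPM (log2 difference 2.38, SE 0.47). Irf1, an interferon-induced transcription factor, was not called in CD8, CD4 or Foxp3 cells.

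Ifng itself was at 124, 297 and 223 CPM in Ifit3-positive and at 160.3, 229.7 and 201 CPM in Ifit3-negative CD8 cells. In CD4 cells it fell, at 24.4 and 122 CPM against 273 and 343 CPM (log2 difference -2.19, SE 0.30, edgeR adjusted p = 3.56e-11). Cd4 and Ccr7 also fell in the positive CD4 cells, by 0.96 (SE 0.22) and 1.45 (SE 0.24) on the log2 scale. Among markers of other classes, the monocyte gene Ly6c2 rose in positive CD4 cells, at 24.4 and 65.2 CPM against 8.88 and 2.78 CPM, while Lyz2 was at 0 and 81.5 CPM against 11.4 and 66.2 CPM. Kit, the only 1 of 3 listed mast cell markers tested there, also rose, by 3.01 (SE 0.82). It was not particular to mast cells, since cDC held it at 169, 101 and 57.9 CPM. Ly6c2 and Kit were both under the filter of 9.66 CPM in every negative CD4 sum. Il2ra, a marker of Foxp3 cells, fell in positive CD4 cells by 1.78 (SE 0.51). In positive Foxp3 cells Il2ra fell by 0.91 on the log2 scale (SE 0.26). In positive monocytes Ly6c2 and the macrophage gene Apoe rose, the latter by 0.47 (SE 0.13), and Lyz2 fell by 0.59 (SE 0.11). No listed marker of any class was called in CD8 cells, and Lyz2 was at 3.30, 60.0 and 31.9 CPM against 4.02, 58.3 and 3.65 CPM. The part of other cells' RNA in these values was not tested.

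Beyond the lists, 10 further genes with at least 20 CPM in the Ifit3-positive cells were called higher in all 4 Ifit3 comparisons. The share of all genes called higher lay between 1.39% and 2.65% per comparison. The 8 with the largest mean difference were Ms4a4c, Daxx, Phf11a, Slfn1, Ifi209, Phf11b, Ly6a and Ifi27l2a. In CD8 cells Ms4a4c, Daxx, Phf11a and Ifi209 did not pass the filter in every negative sum, nor did Daxx, Phf11a, Slfn1 and Ifi209 in monocytes. Ms4a4c was called in Foxp3 cells although it rose only in library 1, at 214 CPM against 11.98 CPM, and was at 33.8 CPM against 37.5 CPM in library 2. Ly6a, the surface protein Sca-1, was at 5780.2, 6473 and 4683 CPM in positive CD8 cells and at 1569, 2019 and 1914 CPM in negative ones (log2 difference 1.64, SE 0.11, edgeR adjusted p = 1.32e-12). Daxx, a histone chaperone and co-regulator of transcription, was at 107, 159 and 143 CPM against 25.1, 17.5 and 16.4 CPM.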

How the data were processed

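The authors aligned reads to mm10 with Cell Ranger (5.0.1 for library 1 and 6.1.2 for libraries 2 and 3) and deposited matrices of UMI counts per gene and cell. Library 1 came without a gene list and took the row order of the others (Spearman correlation of gene totals 0.950 and 0.929, and 0.355 and 0.324 with rows shifted by 1). Barcodes shared between libraries numbered 36, 7 and 14.

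Cells needed at least 300 UMIs, at most 5000 genes and at most 20% mitochondrial UMIs. Classes were gated on marker UMIs, and the gates left out mixed barcodes. No doublet caller was run. Counts were summed per class and library over at least 10 cells and tested in edgeR 4.0.16 (R 4.3.3), with TMM scaling and the library as a block, and in DESeq2 1.42.0 as an alternative. Classes of a library come from the same mice. Their deviations from class means correlated at a median of 0.28 over 63 pairs, 60 of them over 0.1. In comparisons of 2 libraries the block was kept. The fits were tested on simulated data. Of genes changed by 1 on the log2 scale, 66.7% were recovered for CD8 minus CD4 and for Ifit3 states in CD8 cells. The shares were 22.6% for monocyte minus CD4 and 18.2% for pDC minus cDC. With a change of 2 the shares lay between 75.5% and 94.7%. Percentages of UMIs are of raw counts. A minimum of 20 UMIs and a pseudocount of 1 CPM were used where no test was made.

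Members named per comparison were up to 4 called in each direction with the largest difference, at least 20 CPM and the same direction in every library, besides the member with most UMIs per role and fixed pathway genes. Others named in the text (such as Oasl2 in T cells, Isg15, Samd9l, Lgals3bp, Ccr7 and Ly6c2) were picked after their values were seen. A gene of the pathway list is not reported here. The members, lists and tests were chosen with earlier results of these data known. The alternatives were a fit without the block, DESeq2, no TMM, no filter, stricter gates, thinned cells, each library left out, only the classes compared, and cells chosen by Isg15. The comparisons of monocytes with CD4 cells and of Ifit3 states in Foxp3 cells and monocytes, the values without a test in library 2, and the variance without the leading cell, were added after seeing the data.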

Additional observations from a re-analysis of the deposited data

How the results depend on the processing

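The counts of called members depended on the settings as follows, and the cause was not tested. Without the replicate block, the main design's term for library, called members numbered 0 for CD8 minus CD4, 5 for pDC minus cDC, and 18, 17, 1 and 0 for Ifit3 states in CD4, CD8 and Foxp3 cells and monocytes. DESeq2 called 1 for CD8 minus CD4, and 7 and 3 for Ifit3 states in Foxp3 cells and monocytes. Thinned cells gave 2 for Foxp3 minus CD4, 11 for B minus CD4, 5 for pDC minus cDC, and 8 and 11 for Ifit3 states in CD4 and CD8 cells. No low-count filter gave 1 for Foxp3 minus CD4 and 8 for NK minus CD8. A fit of only the classes compared gave 3 for Foxp3 minus CD4, and no TMM gave 29 for B minus CD4. The stricter gate gave 14 for Ifit3 states in Foxp3 cells and, with no test, 8 for monocyte minus macrophage. Cells chosen by Isg15 gave 4 in monocytes. Of all calls, those higher were 47.3%, or 11.9% without TMM, for B minus CD4, 50.7% or 32.5% for monocyte minus CD4, 39.6% or 29.5% for CD8 minus CD4, 50.5% or 64.4% for Foxp3 minus CD4, 50.1% or 64.0% for pDC minus cDC and 47.1% or 59.6% for NK minus CD8. With DESeq2 it was 65.8% for NK minus CD8, and 93.1%, 98.1%, 100% and 100% for Ifit3 states in CD4, CD8 and Foxp3 cells and monocytes, where the main shares were 74.7%, 87.0%, 85.1% and 68.4%, and no TMM gave 82.8% in monocytes. Leaving out 1 library gave 1 to 3 for CD8 minus CD4, 0 for Foxp3 minus CD4, 1 to 5 for NK minus CD8, 11 to 17 for B minus CD4, 7 to 19 for pDC minus cDC, 26 to 27 for monocyte minus CD4 and 24 to 33 for Ifit3 states in CD8 cells. With 2 libraries, no library was left out of the other Ifit3 comparisons. No Ifit3 comparison of B cells or macrophages could be fitted. Without Bst2, Ifitm3, Isg20 and Lgals3bp the mean share of UMIs was 0.147% in CD4, 0.143% in CD8, 0.0756% in NK, 0.0611% in B, 0.472% in monocytes, 0.192% in cDC and 0.186% in pDC. Without Ifit3-positive cells it was 0.147% in CD4, 0.139% in CD8 and 0.610% in monocytes. Without thinning, Ifit3 was found in 4.06% of CD4, 8.46% of CD8, 6.37% of Foxp3, 1.66% of B, 28.2% of monocytes, 8.99% of cDC and 1.51% of pDC. Without the cell with most member UMIs the mean variance of thinned cells was 3.22 times the mean in CD8 and 0.983 times in NK. The other values stayed within 1.5 times, or within 1 SD, of the main value. Of the single members named, 276 values kept direction and call, 38 lost the call, and none changed sign. NK sums held between 38749 and 236033 UMIs, which limits what could be detected there.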

Other observations

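Interferon ligands themselves were rare and lay almost wholly in library 1. Over 20 type I and type III ligand genes of the gene list, library 1 held 306 UMIs in 15 of its 3848 cells, library 2 held 5 UMIs in 5 of 8256 cells and library 3 none in 1533. The leading 2 cells held 220 of the 306 UMIs, and both were gated as pDC. One held 89 UMIs of Ifnl2 and 23 of Ifnl3, interferon lambdas, and the other 74 of Ifna5 and 22 of Ifna4. A cell with 32 ligand UMIs, 8 of them Ifnb1, held 35 Cd3 UMIs and entered no class. The members took 0.554% and 0.811% of the UMIs of the leading 2 cells, where the 57 pDC of library 1 had between 0.256% and 1.86%, with a median of 0.751%. The calls of Ifna5, Ifnl2 and Ifnl3 as higher in pDC than in cDC rest on these cells: in library 2 all 3 genes were at 0 in both classes. This list of ligand genes was widened after the values were seen. Ifng was far more widespread, with 2145, 3661 and 376 UMIs in 789, 1309 and 164 cells.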
